A study of Mus musculus with 8 samples.

Results

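The microRNAs (miRNAs) described here are the recently named ones of mouse liver, those whose miRBase number is 3000 or above, with miR-3074 left out. miRBase gives numbers in the order of discovery, so that most of these names go back to deep sequencing of small RNAs rather than to cloning. A mature miRNA was taken as a member when it had a value above 0 in at least 4 of the 8 deposited libraries, so that members were chosen by detection and not by any difference between Snd1 KO and WT livers. Of 1341 known mature miRNAs listed in at least 1 library, 590 had such a number and 396 were members. Small RNAs of 18 to 30 bases had been sequenced from the left liver lobe of 4 Snd1 KO and 4 WT male mice aged 8 to 12 weeks, with 1 library per mouse. The KO mice carried a germline deletion of the first exon of Snd1. A loxP allele was made in 129/Sv ES cells, and mice with this allele were crossed with CAG-Cre mice to delete the exon. The mice with the deletion were backcrossed to C57BL/6N. The WT mice were littermates of the KO mice from heterozygous pairs. Snd1 (Tudor-SN) is an RNA-binding nuclease that has been linked to the decay of miRNAs, and the KO and WT livers were compared to ask whether its loss changes their levels. The genotype could not be checked, because mRNAs such as that of Snd1 are not in libraries of this kind.

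A miRNA gene is transcribed as a hairpin, which is cut by Drosha and then by Dicer into a duplex of a 5p and a 3p arm. 1 of the arms is usually kept by an Argonaute protein, which it guides to mRNAs through its seed, bases 2 to 8 from the 5′ end. Some hairpins do not need Drosha: in mirtrons and tailed mirtrons, at least 1 end of the hairpin is set by the splicing of a short intron, and in others a snoRNA is the source. Such hairpins are common among the later entries of miRBase, and most are low in any tissue.

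The mature sequences of the highest members are shown first, since they carry most of the tags. They are RefSeq sequences of GRCm38.p6, written 5′ to 3′ with the seed in capitals, and miR-5099 and miR-7219-3p of the 12 highest had no entry.
miR-3068-5p: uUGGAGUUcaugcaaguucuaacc
miR-3105-5p: aGAGCAAGcccguaagcagcgu
miR-6538: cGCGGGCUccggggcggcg
miR-3473d: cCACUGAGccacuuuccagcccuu
miR-5126: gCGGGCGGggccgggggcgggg
miR-7085-3p: uAGCUGGCcucuccccaccuuc
miR-6978-3p: aCGGCUUCacucucacccugcag
miR-6988-3p: uGACCUCUguaucuccugccag
miR-5113: aCAGAGGAggagagagauccugu
miR-6240: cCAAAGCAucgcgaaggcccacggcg
These 10 sequences differ widely in base composition. miR-5126 consists of G and C alone (100%) and miR-6538 of 94.7% G and C, while miR-3068-5p has 41.7%. No 2 of the 10 share a seed.

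The libraries held 21708307 to 27526162 tags in KO and 16223610 to 26158678 tags in WT liver, and 1 tag was worth 0.0363 to 0.0616 CPM (tags per 1000000 tags of the whole library, the unit of the files, not divided by length). The file of KO replicate 1 lists no genomic classes, so its total rests on the steps of its values alone. Known miRNAs made up 57.9, 75.9, 77.6 and 65.9% of the tags in KO replicates 1 to 4 and 78.2, 78.7, 62.6 and 67.6% in WT replicates 1 to 4. Thus KO replicates 1 and 4 and WT replicates 3 and 4 had a lower share (57.9 to 67.6%) and KO replicates 2 and 3 and WT replicates 1 and 2 a higher one (75.9 to 78.7%), 2 mice of each genotype on either side. The 5 hepatocyte miRNAs, among them miR-122-5p, the main miRNA of liver cells, summed to 250691 to 382601 CPM in KO and 244323 to 374766 CPM in WT, so that the tissue label was met in every library.

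The recently named miRNAs were few of the tags. Together they had 912, 460.2, 472 and 689 CPM in KO replicates 1 to 4, against 454, 430.4, 848 and 705 CPM in WT replicates 1 to 4, which is 0.0607 to 0.157% of the known miRNA tags in KO and 0.0547 to 0.135% in WT. The genotypes overlapped, and the 4 libraries with the lower share of known miRNAs had the 4 highest sums. In each library 316 to 353 of the 396 members were detected, and 202 were listed in all 8, against 528 of the 655 other known miRNAs with a value in at least 4 libraries. The median of the mean levels was 0.164 CPM, against 3.28 CPM for these 655. Mean levels were under 0.1 CPM for 135 members, 0.1 to 1 CPM for 208, 1 to 10 CPM for 43 and 10 CPM or more for 10. The 3 highest members held 45.3% of the members' CPM and the 12 highest 69.5%. At the edge of the rule stood 48 members listed in exactly 4 libraries, such as miR-7040-5p and miR-7038-5p, with mean levels of at most 0.101 CPM. Just outside it stood 56 miRNAs listed in exactly 3, such as miR-7072-5p and miR-6927-5p, also at most at 0.101 CPM.

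**Figure D1:**
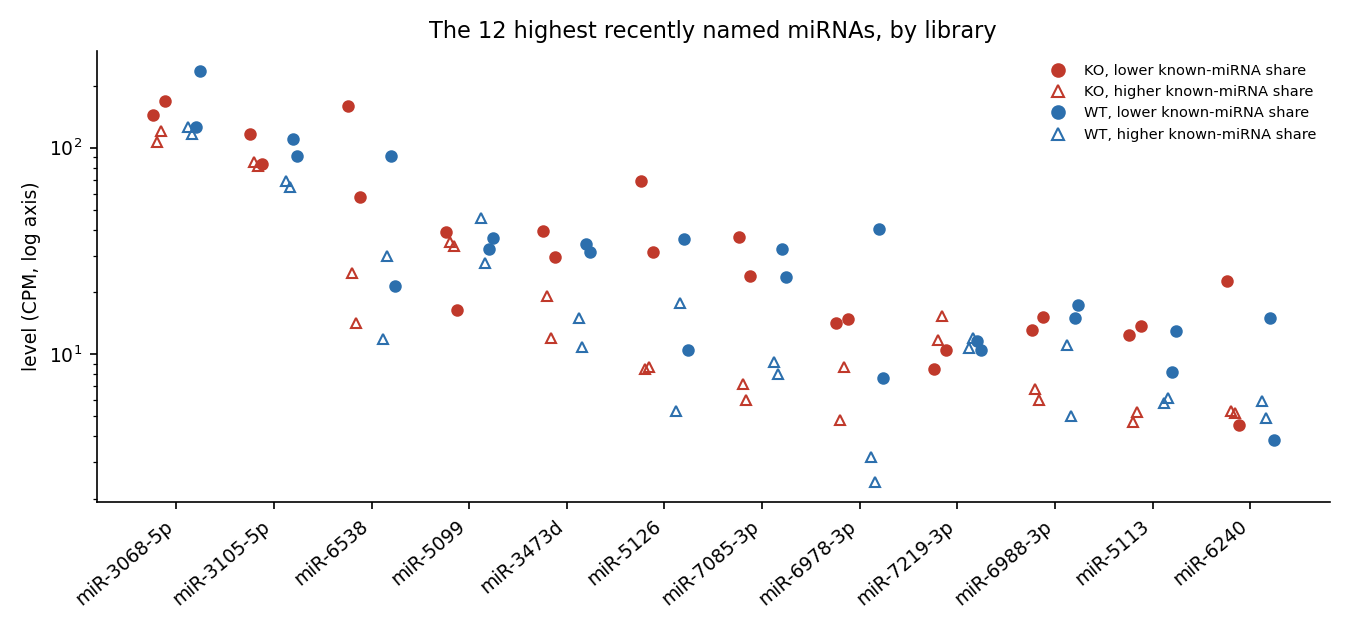
Level in CPM (log axis) of the 12 highest recently named miRNAs in each library, with KO (red) left of WT (blue), filled circles for the 4 libraries with a lower share of known miRNAs and open triangles for the 4 with a higher share. miR-7219-3p stays between 8.52 and 15.4 CPM in all 8 libraries, while miR-6538 runs from 11.8 to 159 CPM, with filled circles above most triangles.

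The highest member, miR-3068-5p, lies in an exon of the lincRNA gene Gm29362 (GRCm38, chr12:87437724-87437747, minus strand). It had 143, 107, 120.5 and 169 CPM in KO replicates 1 to 4, against 125, 116, 125 and 235 CPM in WT replicates 1 to 4. Apart from WT replicate 4 all libraries lay between 107 and 169 CPM. miR-3105-5p, from an intron of Shank2 (chr7:144009267-144009288, plus strand), a gene for a scaffold protein of synapses, had 116, 85.5, 81.2 and 83.3 CPM in KO and 69.1, 64.2, 109.7 and 90.8 CPM in WT. Its values overlapped between the genotypes and varied by 20.6% over the 8 libraries (coefficient of variation).

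The third and the sixth in the order are those richest in G and C among the 10 with a sequence. miR-6538, from an intron of Rnf144a (chr12:26414970-26414988, minus strand), a gene for a ubiquitin ligase, had 159, 24.7, 14.1 and 57.5 CPM in KO, against 11.8, 29.9, 91.2 and 21.4 CPM in WT. miR-5126, read from the strand opposite to Dner (chr1:84695890-84695911, plus strand), had 68.8, 8.50, 8.66 and 31.3 CPM in KO, against 5.30, 17.7, 36.3 and 10.5 CPM in WT. Both were highest in KO replicate 1 and next highest in WT replicate 3, and their coefficients of variation were 99.7 and 92.2%. The genotypes overlapped for both.

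miR-5099 had 39.1, 34.95, 33.5 and 16.3 CPM in KO, against 45.9, 27.6, 32.3 and 36.7 CPM in WT, with KO replicate 4 the lowest. miR-3473d, from an intron of the RNA helicase gene Ddx19b (chr8:111016498-111016521, minus strand), had 39.5, 19.2, 12.0 and 29.7 CPM in KO, against 15.0, 10.8, 34.0 and 31.4 CPM in WT. KO replicates 1 and 4 and WT replicates 3 and 4 were all above the other 4 libraries. miR-7219-3p was among the steadiest members, with 8.52, 11.7, 15.4 and 10.5 CPM in KO and 10.7, 12.0, 11.7 and 10.5 CPM in WT, a coefficient of variation of 17.1%. Only miR-3064-5p, which overlaps an annotated exon of the RNA helicase gene Ddx5, was steadier among the tested members (15.1%). The 3p arm of its hairpin ends at the 3′ end of an intron.

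The other members among the 12 highest were 3 arms at splice sites, given in the next paragraph, and miR-5113 and miR-6240. miR-5113, in an exon of Tnrc6b (chr15:80940049-80940071, plus strand), a gene for a partner of Argonaute in silencing, had 12.4, 4.72, 5.26 and 13.7 CPM in KO, against 5.83, 6.15, 8.20 and 12.9 CPM in WT. miR-6240, which lies in no annotated gene (chr5:114851973-114851998, plus strand), had 22.7, 5.30, 5.22 and 4.52 CPM in KO, against 5.95, 4.89, 15.0 and 3.85 CPM in WT. It is 26 bases long, and KO replicate 1 and WT replicate 3 stood above the rest.

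Of the 396 members, 351 were matched by name to a RefSeq sequence, and their places were read from the GENCODE vM21 annotation of the same build. The 3′ end of 114 of them (32.5%) lay within 3 bases of the 3′ end of an intron on the same strand, where the splice acceptor is, against 8 of 535 other known miRNAs with a sequence (1.495%). Of these 114, 113 were 3p arms, 94 ended exactly at the last base of the intron, and all lay in protein-coding genes, 112 in number. The introns were 73 to 36269 bases long with a median of 316, and 49 were shorter than 200 bases. In 7 the annotated hairpin also began within 3 bases of the 5′ splice site, as in a mirtron without a tail. A further 5 members began at a 5′ splice site, 134 lay elsewhere in an intron, 65 in an exon, 14 opposite to a gene and 19 in no gene. The share in no gene was 5.41% of members, against 29.3% of other known miRNAs.

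**Figure D2:**
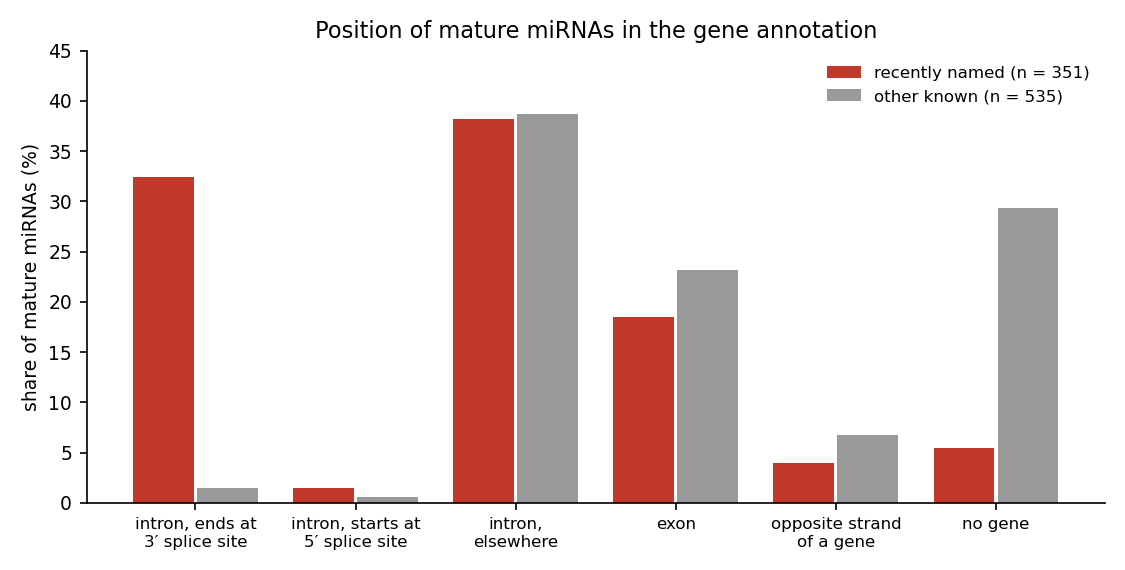
Share of mature miRNAs (%) by their place in the gene annotation, for 351 recently named miRNAs (red) and 535 other known miRNAs with a value in at least 4 libraries (grey). The red bar is far above the grey one at 3′ splice sites (32.5 against 1.495%) and far below it outside genes (5.41 against 29.3%).

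Members of this class end in the last bases of their introns, which is why some are shown here with their last 2 bases in capitals.
miR-6978-3p: acggcuucacucucacccugcAG
miR-6988-3p: ugaccucuguaucuccugccAG
miR-7052-3p: gcucugcccccuccuucccAG
miR-7019-3p: ucaccuuggccgccucucugcAG
miR-7070-3p: caggcucuccuucccuccAG
Of the 114, 94 end in AG, the last 2 bases of most introns, and a median of 71.4% of their bases are C or U, as in the stretch that comes before an acceptor. Over all 351 members 31.1% end in AG, against 6.92% of the 535 other known miRNAs. Since these members were placed by their position, the AG and the C and U content follow from it and are no separate finding. The median content of G and C was 57.1% in members and 47.8% in the others, and 51.3% of members and 37.2% of the others begin with U, the base that Argonaute proteins favour. The median length was 22 bases in both.

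Of the 114 members at 3′ splice sites 12 reached the minimum for the test. The highest, miR-7085-3p, lies in Slc37a4 (chr9:44400465-44400486, plus strand), the glucose-6-phosphate transporter gene of liver, and its annotated end is 2 bases before that of a 450-base intron. It had 37.1, 7.16, 5.99 and 23.9 CPM in KO, against 9.22, 7.99, 32.4 and 23.6 CPM in WT. miR-6978-3p, in a 94-base intron of the complement gene C3 (chr17:57217172-57217194, minus strand), had 14.1, 4.80, 8.66 and 14.8 CPM in KO, against 3.18, 2.41, 40.3 and 7.64 CPM in WT. WT replicate 3 was alone at the top. miR-6988-3p, in an 82-base intron of Syvn1 (chr19:6051371-6051392, plus strand), a ubiquitin ligase gene of the endoplasmic reticulum, had 13.1, 6.79, 5.99 and 15.2 CPM in KO, against 11.1, 5.01, 15.0 and 17.4 CPM in WT. For all 3 the KO and WT values overlapped. miR-7032-3p, in an 87-base intron of Hip1r (chr5:123996908-123996929, plus strand), had 2.21, 2.94, 1.51 and 3.94 CPM in KO, against 0.94, 0.54, 2.96 and 1.92 CPM in WT.

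Both arms were named for 223 hairpins with a member. A hairpin was placed at a 3′ splice site by a 3p arm that is itself a member, so the arms are compared only where both were members. Of such hairpins the 3p arm had the higher mean in 41 of the 63 at a 3′ splice site (65.1%) and in 26 of the 48 others (54.2%), a difference that was not tested. In 18 of the 63 the 3p arm was the higher in all 8 libraries and in 4 the 5p arm, against 11 and 9 of the 48. The 3p arm of miR-6978 took 96.3% of the tags of its 2 arms and that of miR-7085 81.7%. For miR-6988, whose 5p arm was no member and which is not in these counts, it was 99.8%. Outside the splice sites, miR-3068-5p had 142.6 CPM on average and miR-3068-3p 0.0288 CPM, so that the 3p arm had 0.0202% of the tags.

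**Figure D3:**
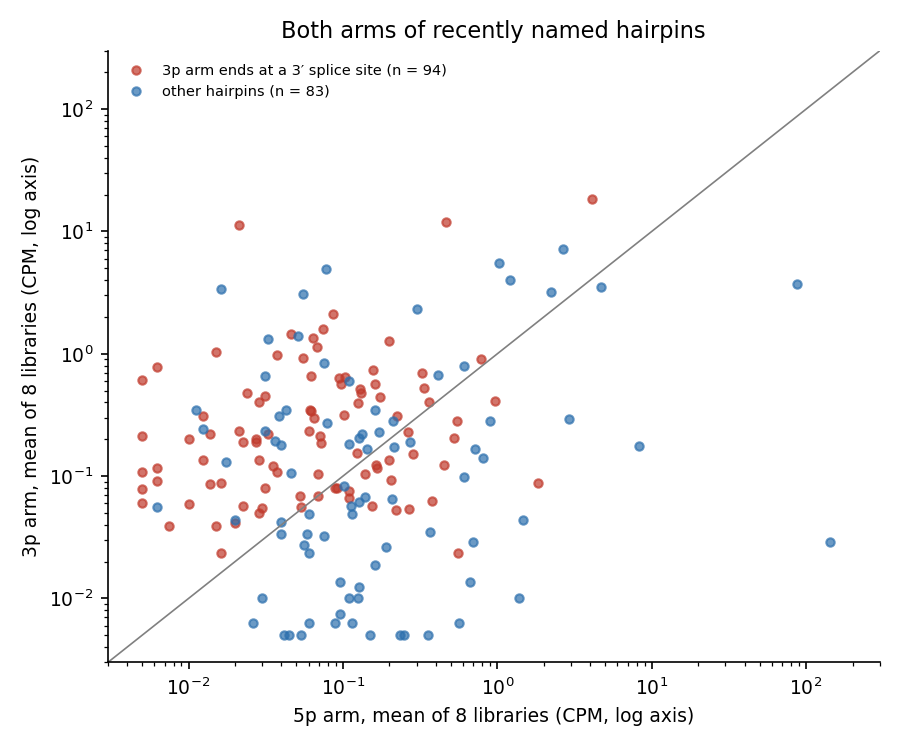
Mean level over 8 libraries of the 3p arm against that of the 5p arm (CPM, log axes) for 177 hairpins in which both were above 0, with hairpins whose 3p arm ends at a 3′ splice site in red and the others in blue, and a line where both arms are equal. Red hairpins were placed by a detected 3p arm, which favours points above the line, and the farthest point below it is miR-3068, with 142.6 CPM for the 5p and 0.0288 CPM for the 3p arm.

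In 7 hairpins both arms reached the minimum for the test. The share of the 3p arm was 2.47 to 4.85% in KO and 4.03 to 5.56% in WT for miR-3105, 62.3 to 83.4% in KO and 78.6 to 86.2% in WT for miR-7085, and 66.2 to 81.2% in KO and 57.6 to 79.8% in WT for miR-3084, whose arms lie within a snoRNA (Gm23658) and also match Snora19, so that tags of the snoRNA and of the miRNA cannot be told apart. For miR-3058, from an intron of Nudt4, it was 70.6 to 82.2% in KO and 64.9 to 85.0% in WT. For miR-3057, annotated in an exon of Apba3, it ran from 53.4 to 73.4% in KO and from 33.0 to 76.8% in WT. The genotypes overlapped in these 5. The arms of miR-3073a and miR-3073b are given below with their locus.

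The level of each of these arms was low beside that of miR-3105-5p. miR-3105-3p had 2.95, 3.89, 4.14 and 2.90 CPM in KO, against 2.90, 3.78, 5.24 and 4.17 CPM in WT (log2 fold change -0.16, adjusted p = 0.971 from limma). miR-7085-5p had 8.11, 1.42, 3.63 and 6.55 CPM in KO, against 1.79, 2.18, 5.18 and 4.11 CPM in WT, and was high in the same 4 libraries as miR-7085-3p. miR-3084-3p (chr19:24942240-24942260, minus strand) had 7.14, 8.14, 6.65 and 10.6 CPM in KO, against 5.51, 5.20, 5.92 and 8.44 CPM in WT. In 3 of the 4 WT livers it was below all KO livers, and its log2 fold change was 0.33 (interval -0.31 to 0.97, adjusted p = 0.877 from limma). miR-3084-5p had 2.67, 2.47, 3.40 and 2.45 CPM in KO, against 2.45, 3.82, 1.79 and 2.14 CPM in WT. miR-3058-3p had 4.98, 2.72, 2.86 and 5.26 CPM in KO, against 3.67, 2.14, 6.97 and 3.26 CPM in WT, and miR-3058-5p had 0.62 to 1.70 CPM in KO and 0.77 to 1.76 CPM in WT. Neither arm of miR-3058 separated the genotypes. miR-3057-3p had 3.78, 2.25, 2.13 and 3.90 CPM in KO, against 1.47, 1.22, 8.57 and 2.19 CPM in WT. miR-3057-5p had 1.80, 1.85, 1.86 and 1.41 CPM in KO, against 2.28, 1.64, 2.59 and 4.44 CPM in WT (log2 fold change -0.41, adjusted p = 0.853 from limma). WT replicate 2 lay among the KO livers for this arm.

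The KO and WT livers were compared with limma on log2(CPM + 1) over 475 known miRNAs, 57 of them members, that reached 1 CPM in 4 or more libraries. None of the 57 passed an adjusted p of 0.05, and over the 475 tested 0 passed (0.0%). The adjusted p-values of the members ran from 0.842 to 0.996. At an unadjusted p under 0.05 there was 1 member of 57, where 4.21% of all tested (20 of 475) had such a p. With limma-voom on the recovered tags 0 members were called. In that fit 2 of 57 members (3.51%) had an unadjusted p under 0.05, where 19 of 475 tested (4.0%) had one. The 57 log2 fold changes had a median of 0.04 with 35 positive, against a median of -0.11 with 196 of 475 positive (41.3%) over all tested. The median of the members was negative without KO replicate 1, WT replicate 1 or WT replicate 2 (-0.03, -0.0013 and -0.06).

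The 95% intervals of 56 of the 57 members included 0, with a median width of 1.42 on the log2 scale. For the most abundant the difference was -0.11 for miR-3068-5p (interval -0.82 to 0.59, adjusted p = 0.971) and 0.15 for miR-3105-5p (-0.50 to 0.80, adjusted p = 0.971). For miR-3064-5p the interval was -0.47 to 0.45. For miR-6538 (0.54, -1.23 to 2.30), miR-5126 (0.51, -1.15 to 2.17), miR-6978-3p (0.35, -1.29 to 1.99) and miR-7085-3p (-0.12, -1.57 to 1.33) the interval was wide and held changes of more than 2-fold in either direction. With these spreads a change of that size could not have been told from none. miR-6954-3p (0.63, adjusted p = 0.853) and miR-7032-3p (0.55, adjusted p = 0.853) had the largest positive estimates beside miR-6538. The largest negative ones were -0.75 for miR-8114, which lies in an exon of the glutamine synthetase gene Glul (chr1:153899989-153900009, plus strand), -0.61 for miR-3073b-3p, and -0.49 for miR-5114, in an exon of the desaturase gene Scd2 (chr19:44303171-44303192, plus strand).

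**Figure D4:**
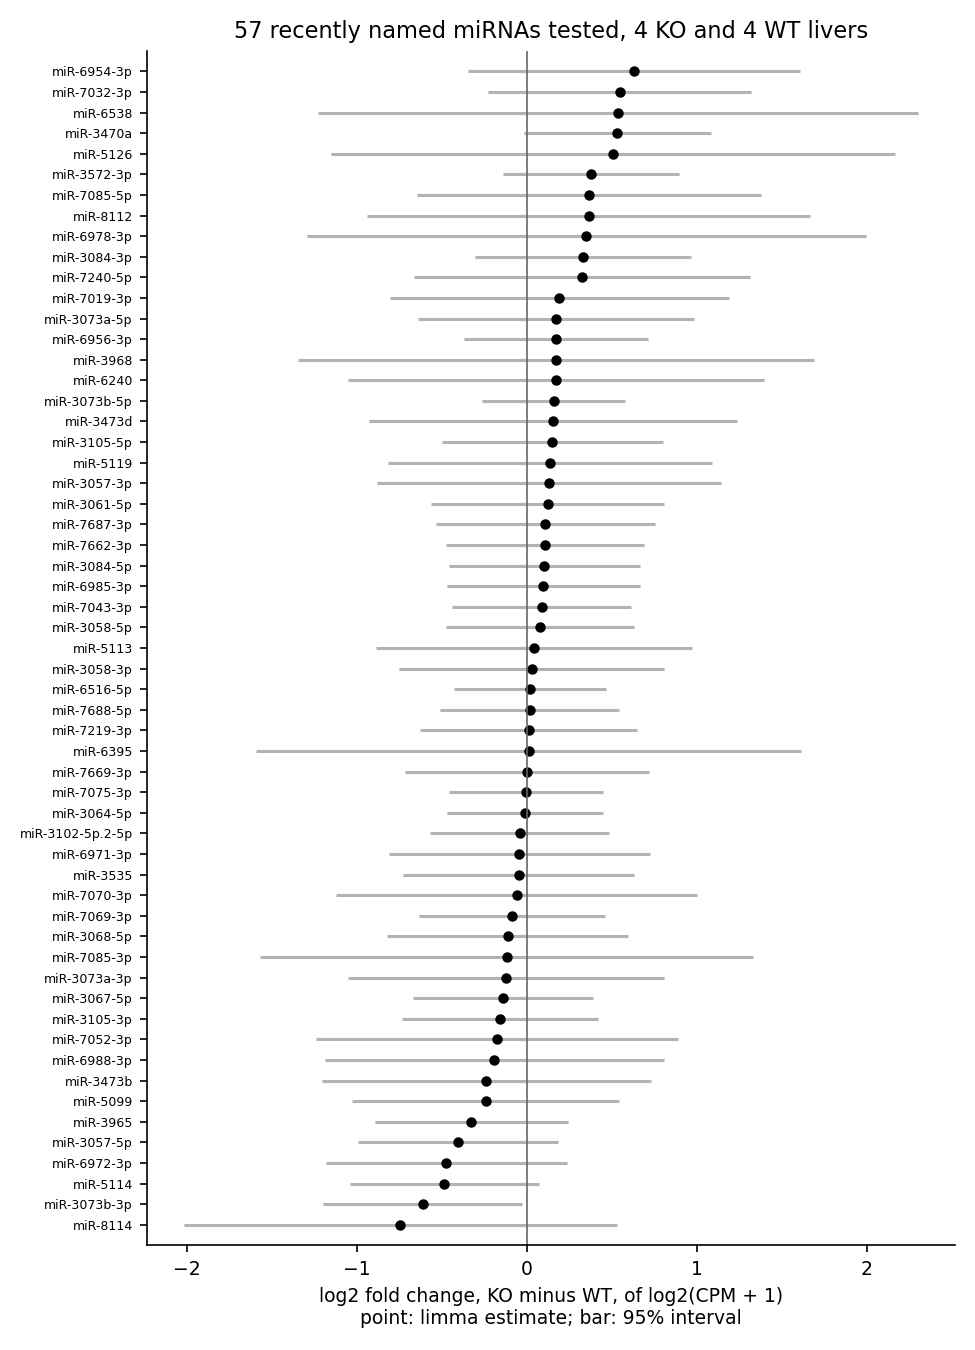
Log2 fold change, KO minus WT, of log2(CPM + 1) for the 57 recently named miRNAs tested, as the limma estimate (point) with its 95% interval (bar), in the order of the estimates. Except for miR-3073b-3p, whose interval ends at -0.03, every bar crosses 0.

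miR-8114 had 4.98, 0.80, 1.20 and 2.65 CPM in KO, against 2.16, 1.57, 13.1 and 4.97 CPM in WT, so that WT replicate 3 alone made the WT mean exceed all the KO values. miR-5114 had 1.43, 0.36, 0.23 and 0.62 CPM in KO, against 0.90, 1.30, 1.66 and 1.18 CPM in WT, where KO replicate 1 lay among the WT livers. miR-6954-3p had 5.76, 2.43, 1.62 and 6.17 CPM in KO, against 1.92, 0.54, 3.33 and 2.89 CPM in WT. None of these 3 separated the genotypes.

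miR-3073b-3p was the 1 member of 57 (1.75%) whose KO values did not overlap its WT values, where 14 of the 475 tested (2.95%) had no overlap. It comes from a locus in which hairpins on both strands are annotated: miR-3073a is on the plus strand, in an intron of the asparaginase gene Aspg on chromosome 12, and miR-3073b is on the minus strand of the same bases. The 4 arms are shown because those of one hairpin lie opposite to those of the other.
miR-3073a-5p: gUGGUCACaguuggcgccagcc
miR-3073a-3p: uUGAUGUCcacugugaccauag
miR-3073b-5p: aUGGUCACaguggacaucaacc
miR-3073b-3p: cUGGCGCCaacugugaccacug
The seed, in capitals, is the same in the 2 5p arms. miR-3073a-5p (chr12:112109252-112109273) lies over 20 bases opposite to miR-3073b-3p (chr12:112109250-112109271), and miR-3073a-3p (chr12:112109290-112109311) over 20 bases opposite to miR-3073b-5p (chr12:112109288-112109309). miR-3073b-3p had 3.78, 3.63, 4.29 and 4.97 CPM in KO, against 7.18, 5.24, 8.44 and 6.95 CPM in WT, so that the highest KO liver was just below the lowest WT liver. The log2 fold change was -0.61 (SE 0.26, p = 0.0416, adjusted p = 0.842 from limma), and the two-sided exact permutation test gave p = 0.0286, the smallest that 4 against 4 libraries allow, which restates the lack of overlap for which it was named. It was -0.70 within the libraries of lower and -0.53 within those of higher known-miRNA share.

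The other arms of this locus did not follow it. miR-3073a-5p had 4.74, 3.63, 4.49 and 6.63 CPM in KO, against 2.69, 2.52, 8.38 and 4.65 CPM in WT (log2 fold change 0.17, adjusted p = 0.971), and miR-3073b-5p had 1.29, 0.91, 1.31 and 1.04 CPM in KO, against 0.90, 0.69, 1.23 and 0.86 CPM in WT (0.16). Both genotypes overlapped in these arms. The 3p arm took 74.6 to 82.7% of miR-3073b in KO and 87.3 to 89.0% in WT, with no overlap, a comparison chosen after its values were seen and resting on the same miR-3073b-3p values. miR-3073a-3p had 1.66, 5.38, 4.25 and 1.91 CPM in KO, against 5.83, 3.90, 1.29 and 3.74 CPM in WT. It was below 3.75 CPM in KO replicates 1 and 4 and WT replicates 3 and 4, and above it in the rest. Its share of miR-3073a was 13.3 to 44.6% in the libraries of lower known-miRNA share and 48.6 to 68.4% in those of higher share. The 2 sets did not overlap, and the 3p arm was the higher of the pair in 3 of the 8 libraries, all of higher share.

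The remaining 339 members did not reach that minimum. With a value above 0 in at least 4 libraries as the only filter, 0 of 1054 known miRNAs passed, and 10 of the 396 members had an unadjusted p under 0.05 (2.53%), where 53 of 1054 had one (5.03%). In 8 of the 339 (2.36%) the genotypes did not overlap, against 16 of 240 other known miRNAs below the minimum (6.67%). The lowest p among the members was that of miR-3966, chosen here after its values were seen, with 0.32, 0.73, 1.20 and 0.50 CPM in KO, against 0, 0.08, 0.18 and 0.11 CPM in WT (log2 fold change 0.60, adjusted p = 0.531 from limma and 0.376 from limma-voom). All KO livers were above all WT livers, at a level of a few tags in WT.

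The libraries of lower known-miRNA share were then set against those of higher share. There, 47 of the 57 tested members (82.5%) had the higher mean log2(CPM + 1) in the 4 libraries of lower share, against 283 of 475 tested miRNAs (59.6%). The median log2 difference, lower minus higher share, was 0.52 for the members and 0.19 for the 415 other known miRNAs tested. These 415 were more abundant, with a median of the mean levels of 19.3 CPM against 2.65 CPM for the members. Among the tested with a mean under 10 CPM the median difference was 0.50 for 47 members and 0.28 for 164 others. In 20 of the 57 (35.1%) the 4 libraries of lower share lay wholly above the other 4, where 100 of 475 (21.1%) did, and in 4 (7.02%) they lay wholly below, where 46 of 475 (9.68%) did. No p is given, since the libraries were divided by a measure of the same libraries. The division is by the share of all known miRNAs, of which the members are at most 0.157%. The median of the members was 0.44 within KO and 0.59 within WT liver, against 0.10 and 0.36 over all 475 tested. Below the minimum for the test, 271 of 339 members (79.9%) had the higher mean in the libraries of lower share, against 160 of 240 other known miRNAs (66.7%).

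miR-7085-3p had the largest difference, with 23.6 to 37.1 CPM in the libraries of lower share and 5.99 to 9.22 CPM in those of higher share. miR-3473d had 29.7 to 39.5 against 10.8 to 19.2 CPM, and miR-8114 had 2.65 to 13.1 against 0.80 to 2.16 CPM, in the same order. In both the 2 sets of libraries were apart. miR-6538 (21.4 to 159 against 11.8 to 29.9 CPM) and miR-5126 (10.5 to 68.8 against 5.30 to 17.7 CPM) had large differences of means with some overlap. miR-3073a-3p ran the other way, with 1.29 to 3.74 CPM in the libraries of lower share and 3.90 to 5.83 CPM in those of higher share, as did miR-7688-5p, miR-3535 and miR-7043-3p. Thus the members were not uniformly higher in the libraries of lower share.

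**Figure D5:**
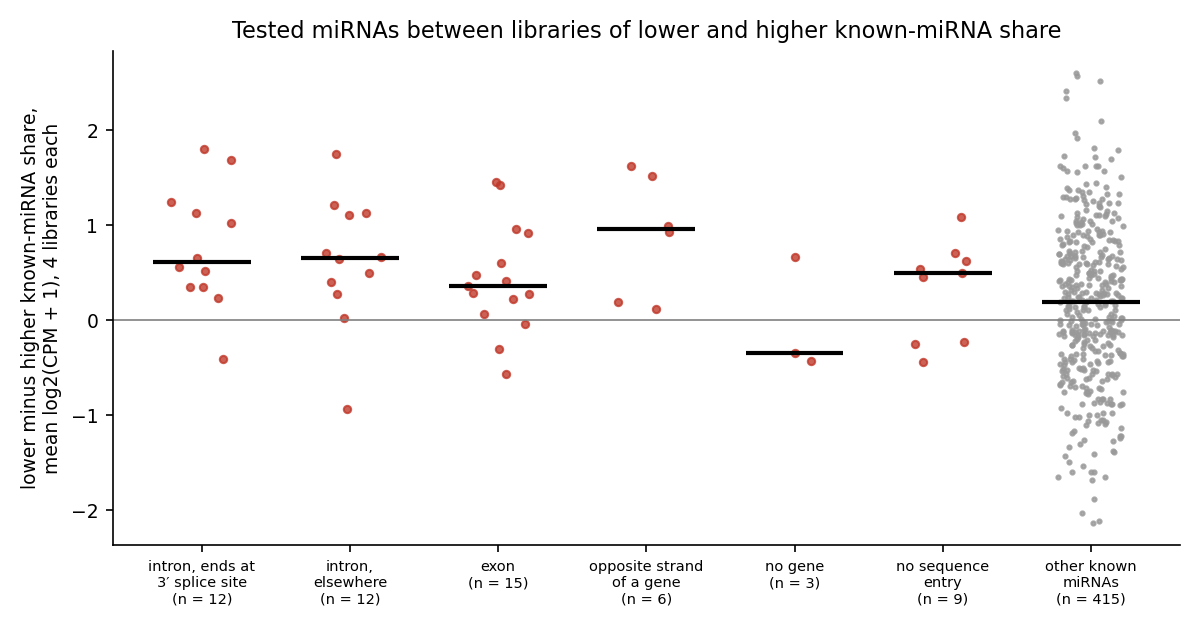
Mean log2(CPM + 1) in the 4 libraries of lower known-miRNA share minus that in the 4 of higher share, for the 57 tested members by their place in the annotation (red) and for 415 other known miRNAs tested (grey), with the median as a black line. The medians are 0.61 for the 12 members ending at a 3′ splice site, 0.66 for the 12 elsewhere in introns and 0.36 for the 15 in exons, against 0.19 for the other known miRNAs.

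The difference was found in members of several kinds. The median was 0.61 for the 12 tested at 3′ splice sites, 0.66 for the 12 elsewhere in introns, 0.36 for the 15 in exons and 0.96 for the 6 opposite to a gene. The 3 in no gene had a median of -0.35. With the content of G and C it moved together: the 26 tested members of at least 60% G and C had a median of 0.81 and the 22 under 60% had 0.23. Over these 48 members Pearson's r between G and C content and the difference was 0.68 and Spearman's rho 0.65, given as a description, since the values come from the same 8 libraries. The other known miRNAs did likewise: 52 of at least 60% had a median of 0.91 and 300 under 60% had -0.01 (r = 0.55, n = 352). At 60% G and C and above, the median of the members was thus below that of the others, and under 60% it was above it. Whether the members differ from other miRNAs of like composition was not tested.

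The summed levels of the markers of several cell types and the depth also moved with this division. The 5 hepatocyte miRNAs, all listed, summed to 244323 to 296939 CPM in the libraries of lower and 326873 to 382601 CPM in those of higher share. They are a large part of the known miRNA tags by which the libraries were divided, so their difference is not independent of the division. The 2 endothelial miRNAs (both arms of miR-126a) summed to 5812 to 6653 CPM in the libraries of lower and 12518 to 19516 CPM in those of higher share, and the 4 erythroid ones to 7363 to 9826 and 13338 to 17397 CPM. All 6 of these were listed as well, with none at 0. The totals were 16223610 to 24130669 and 24519879 to 27526162 tags. The part of any of these in the members' difference was not tested. Leukocyte miRNAs (6 of 6 listed) summed to 1408 to 1640 CPM in the libraries of lower and 1127 to 1887 CPM in those of higher share, and the mesenchymal and stellate ones (5 of 5 listed) to 6292 to 9195 and 6299 to 9857 CPM. Both lists overlapped. In a fit with the division as a covariate, 0 of the 57 members and 1 of 475 miRNAs (0.211%) passed, and 5 of 57 members had an unadjusted p under 0.05, where 65 of 475 did (13.7%). The lowest adjusted p among the members in this limma fit was 0.184, for miR-3470a, named after its values were seen. It had 1.66, 0.87, 1.12 and 1.74 CPM in KO, against 0.29, 0.27, 1.11 and 0.91 CPM in WT.

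Most members have a seed of their own. Of the 351 with a sequence, 317 shared bases 2 to 8 with no other known miRNA listed in at least 4 libraries, and 34 fell into 23 groups, 14 of which hold a lower-numbered miRNA and 9 members alone. The 2 highest members with a lower-numbered partner are each set beside the highest such partner, with the seed in capitals.
miR-3473d: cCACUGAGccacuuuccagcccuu
miR-674-5p: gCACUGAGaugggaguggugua
miR-6240: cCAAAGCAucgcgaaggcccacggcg
miR-330-3p: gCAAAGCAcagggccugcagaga
The levels of such partners were often alike or higher. miR-3473d averaged 24.0 CPM and miR-674-5p 21.9 CPM, and miR-6240 averaged 8.43 CPM and miR-330-3p 13.5 CPM. Another partner of miR-3473d, miR-1947-3p, averaged only 0.034 CPM. At the other end, miR-6921-5p averaged 0.0975 CPM beside miR-423-5p at 958 CPM, with which it shares GAGGGGC as seed. Outside the seed the paired sequences differ, so that a shared seed says nothing of shared origin.

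There were 4 members from hairpins that lie opposite to that of a lower-numbered miRNA. miR-3065-5p (chr11:120014780-120014801, plus strand), opposite to the miR-338 hairpin within Aatk, had 0.18, 0.18, 0.19 and 0.08 CPM in KO, against 0.04, 0.42, 0 and 0.21 CPM in WT, and miR-3065-3p of the same hairpin had 0.09, 0.25, 0.31 and 0.37 CPM in KO, against 0.65, 0.23, 0.68 and 0.21 CPM in WT. By comparison, miR-338-3p had 1.61 to 10.2 CPM in KO and 1.48 to 10.1 CPM in WT. miR-3071-5p had 0.28, 0.29, 0.15 and 0.12 CPM in KO, against 0.04, 0.15, 0.12 and 0 CPM in WT, and miR-3071-3p had 0.18, 0.11, 0.19 and 0.21 CPM in KO, against 0.08, 0.15, 0.31 and 0.11 CPM in WT. They lie opposite to miR-136 at the imprinted gene Rtl1, and miR-136-5p had 0.54 to 1.11 CPM in KO and 0.12 to 1.29 CPM in WT. The more abundant arm, miR-136-3p, had 1.70, 1.63, 2.05 and 3.98 CPM in KO, against 0.98, 0.54, 1.48 and 1.12 CPM in WT. All its KO values were above all its WT values, where 14 of the 475 tested (2.95%) had no overlap. None of the 475 passed an adjusted p of 0.05 from limma. Apart from miR-136-3p the genotypes overlapped in all of these, and the 4 members had at most 0.68 CPM in any library. Between Dlk1 and Dio3, the imprinted region to which Rtl1 belongs, there were 3 members with a sequence entry, the third being miR-3072-3p, with a mean of 0.66 CPM.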

How the data were processed

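Small RNAs of 4 Snd1 KO and 4 WT livers were sequenced on the BGISEQ-500 platform. The authors removed low-quality and contaminant tags, mapped the rest to GRCm38 with Bowtie (version not given in the sources used here) and deposited values in CPM (headed TPM), tags per 1000000 of the whole library, rounded to 2 decimals. How tags matching several loci were counted is not stated. The members and lists were chosen with earlier results of these data known.

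Repeated rows of a miRNA were summed and a missing one was given 0. The 475 known miRNAs that reached 1 CPM in 4 or more libraries were tested on log2(CPM + 1) with limma 3.58.1 (R 4.3.3, trend option) and p-values adjusted by Benjamini-Hochberg over all 475, at a threshold of 0.05, so the fold changes of low miRNAs are understated. The fit was tested on simulated data. Totals were recovered as the number that turns every value into whole tags within 0.0051 CPM (100% of values). They served limma-voom, and precision from them covers counting error only, since the tags are PCR reads. No 2 libraries held identical values. Where nothing else is said, n = 4 mice a genotype.

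Sequences are from RefSeq (GRCm38.p6), and places from GENCODE vM21, with an end within 3 bases of an intron's end counted as at the splice site. Splice sites were taken first. Any other overlap with an exon of any transcript on the same strand was counted as an exon, also where another transcript has an intron. The first-listed copy was used for the 6 members with several loci. Named were the 12 highest members, those with an unadjusted p under 0.05 or without overlap of the genotypes, the 3 largest log2 fold changes in each direction, arms of hairpins with both arms tested and members opposite to a lower-numbered hairpin. Others named are examples, the steadiest member and those whose libraries of lower known-miRNA share lay wholly below the rest. Single marker miRNAs, opposite-strand partners and seed partners are also named. All of these others were chosen after their values were seen. Alternatives were other scalings, pseudocounts, filters and fits, a block for replicate numbers and the omission of single libraries.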

Additional observations from a re-analysis of the deposited data

Results flagged for a closer look

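For the 32 named miRNAs, 64 groups of 4 libraries were checked, and in 7 of them a single library stood apart. At a nominal rate of about 1 group in 20 this would be 3.2 groups. The groups share the same 8 libraries and some hold only a few tags, so no conclusion is drawn from that rate. KO replicate 1 was high for miR-3105-5p, at 116 CPM beside 81.2 to 85.5 CPM elsewhere in KO, and for miR-6240, at 22.7 CPM beside 4.52 to 5.30 CPM. KO replicate 4 was low for miR-3057-5p, at 1.41 CPM beside 1.80 to 1.86 CPM elsewhere in KO, and for miR-3065-5p, at 0.08 CPM beside 0.18 to 0.19 CPM. WT replicate 3 was high for miR-6978-3p, at 40.3 CPM beside 2.41 to 7.64 CPM elsewhere in WT, and for miR-3057-3p, at 8.57 CPM beside 1.22 to 2.19 CPM. WT replicate 4 was high for miR-3068-5p, at 235 CPM beside 116 to 125 CPM elsewhere in WT.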

How the results depend on the processing

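The count of 0 called members held under all 20 alternatives, among them limma-voom without a minimum, which was added after seeing the data. Of all known miRNAs, 1 was called with the division of the libraries as a covariate, leaving out single libraries gave 0 to 1 (without WT replicate 2), and the other alternatives gave 0. The median log2 fold change of the members was 0.04 and ranged from -0.06 (without WT replicate 2) to 0.20 (without WT replicate 3), and with no minimum it was -0.01. With the replicate number as a block the count of called members was also 0, the median was 0.04, and miR-3073b-3p had an adjusted p of 0.984 from limma. The numbers did not pair the samples (r = -0.46, 0.35, -0.53 and 0.07 for numbers 1 to 4), and none correlated best with its own number. With a value above 0 in all 8 libraries there were 202 members, and with 1 library enough 590. A count model and a test of pooled tags had been planned and were not run. Of 28 named members tested, the sign held for 11 under all alternatives run and turned for 17, for each of them only where a library was left out. Their ranges when leaving out single libraries were -0.23 to 0.12 for miR-3068-5p, -0.0875 to 1.08 for miR-6538, -0.37 to 0.0287 for miR-5099, -0.14 to 0.44 for miR-3473d, -0.0631 to 0.94 for miR-5126, -0.56 to 0.26 for miR-7085-3p, -0.0863 to 1.11 for miR-6978-3p, -0.13 to 0.13 for miR-7219-3p, -0.53 to 0.0094 for miR-6988-3p, -0.19 to 0.27 for miR-5113, -0.32 to 0.54 for miR-6240, -0.0070 to 0.46 for miR-3073a-5p, -0.17 to 0.28 for miR-3058-3p, -0.43 to 0.0936 for miR-3073a-3p, -0.10 to 0.60 for miR-3057-3p, -0.0034 to 0.26 for miR-3084-5p and -0.0152 to 0.23 for miR-3058-5p. The cause was not tested. miR-3073b-3p ranged from -0.73 to -0.53. At 1 tag of 0.0363 to 0.0616 CPM, differences among members under 0.1 CPM rest on a few tags.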
